A study of Danio rerio with 18 samples.

Results

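Sites of 5-methylcytosine (m5C) in polyadenylated RNA of zebrafish embryos were compared between 8 and 10 hours post fertilisation (hpf), the last stretch of gastrulation. Members were the sites in the deposited lists of these stages, matched by chromosome, position and strand. The lists held 1252 sites in 973 genes at 8 hpf and 428 sites in 352 genes at 10 hpf, which were 1346 distinct sites of 9047 in the series. Both lists held 334 of them, in 287 genes. Whole embryos of wild-type AB fish, untreated and reared at one temperature, were pooled for each library, and polyadenylated RNA was taken from the pool. Each stage had 2 libraries, 4 of 18 in the series, and the deposited value of a site combines both libraries of its stage. No value below therefore has a spread between replicates, and all intervals are 95% intervals for counting error or for the spread over sites. Since whole embryos were used, fewer cells that contain an mRNA and less of it per cell cannot be told apart. The lists hold no expression values, so the stage labels were not checked against marker genes.

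In bisulfite sequencing an unmethylated cytosine is read as T and a methylated one is still read as C. The level of a site is the share of C among its C and T reads, and their sum is its coverage. NSUN2 and NSUN6 are the enzymes known to place m5C on mRNA, and ALYREF and YBX1 are proteins known to bind it. Before the embryo's own genome is switched on, its mRNA comes from the egg. That maternal mRNA is broken down through gastrulation while new transcripts are made, so a gene can have old and new copies in the same embryo. Coverage was at least 20 reads and the level at least 10% at each listed site. Absence from a list can mean too few reads, too low a level or another failed filter. Median coverage was 97 reads at 8 hpf and 98 at 10 hpf, and highest coverage was 32512 and 35152 reads. Positions are those of the Zv9 assembly, and which part of each transcript they fall in was not analysed here.

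Most sites left the list and most that stayed had a lower level. Of the 1252 sites at 8 hpf, 26.7% (95% interval 24.3% to 29.2%) were listed again at 10 hpf. In the other direction, 78.0% of the 428 sites at 10 hpf (73.9% to 81.7%) had been listed at 8 hpf. The median level of the 334 shared sites was 25.0% (22.8% to 27.7%) at 8 hpf and 17.6% (16.8% to 19.2%) at 10 hpf. The level was lower at 10 hpf at 233 shared sites, or 69.8% (64.6% to 74.4%), and higher at 99. The median change was -4.62 percentage points (-5.88 to -3.58), and single sites ranged from -47.1 to 35.2 points.

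The 334 shared sites were each tested for a difference in C and T reads by a two-sided Fisher's exact test. The p-values were adjusted over these sites by the Benjamini-Hochberg method, and the threshold was 0.05. This test compares the combined libraries of the stages and does not include variation between replicates. It called 96 sites in 92 genes lower at 10 hpf (28.7% of those tested) and 13 sites higher (3.89%). A z test that adds extra spread to the counting error, of the size seen between the lists of 2 and 4 hpf, called 74 sites lower (22.2%) and 6 higher (1.8%). All of these were among the sites called by the exact test.

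**Figure D1:**
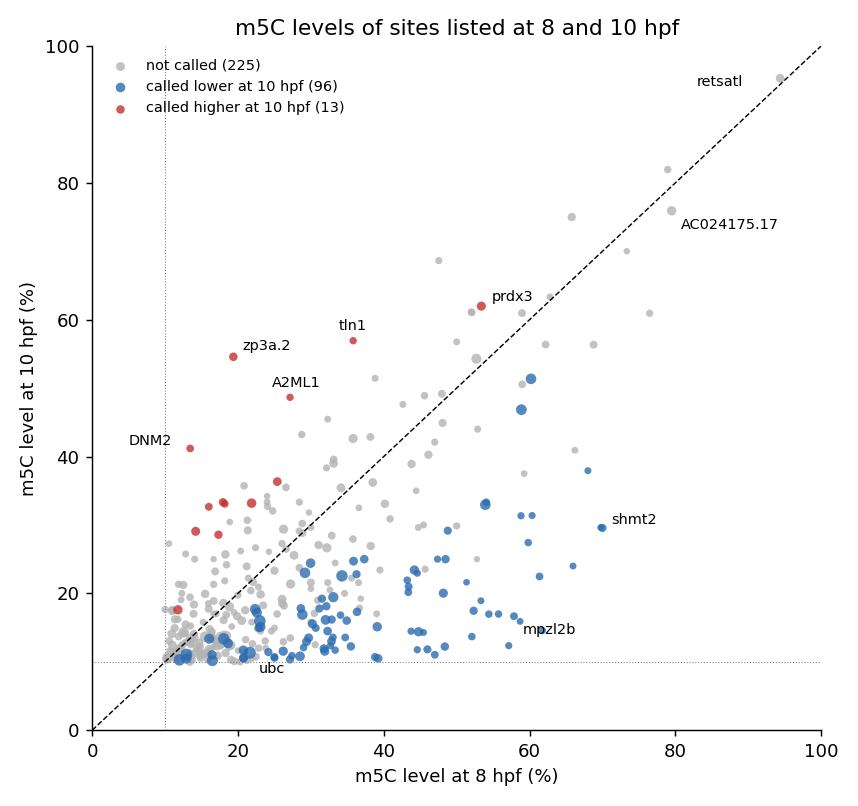
m5C level at 8 hpf (x axis, %) against the level at 10 hpf (y axis, %) for the 334 sites listed at both stages, with point area growing with the logarithm of coverage, the dashed line at equal levels and dotted lines at the list minimum of 10%. The 96 sites called lower lie below the dashed line and the 13 called higher lie above it, with zp3a.2 farthest above.

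Changes were most negative where the level at 8 hpf was high. Sites at 50% or more at 8 hpf were listed again in 43 of 63 cases (68.3%, 56.0% to 78.4%), and the median change of those 43 was -21.0 points (-30.1 to -8.85). Sites between 30% and 50% were listed again in 90 of 152 cases (59.2%), with a median change of -14.4 points (-17.2 to -12.1). Just 59 of 528 sites between 10% and 15% (11.2%, 8.76% to 14.1%) were listed again. Of those 59, 34 were higher and 24 lower at 10 hpf, with a median change of 0.22 points (-0.23 to 2.47). A site of low level could be listed at both stages only if it did not fall below 10%, so the list minimum hides falls in this class. Coverage at 8 hpf moved with being listed again too. The share was 12.7% (9.10% to 17.5%) of 244 sites with fewer than 50 reads and 36.2% (29.0% to 44.2%) of 149 sites with 500 reads or more.

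**Figure D2:**
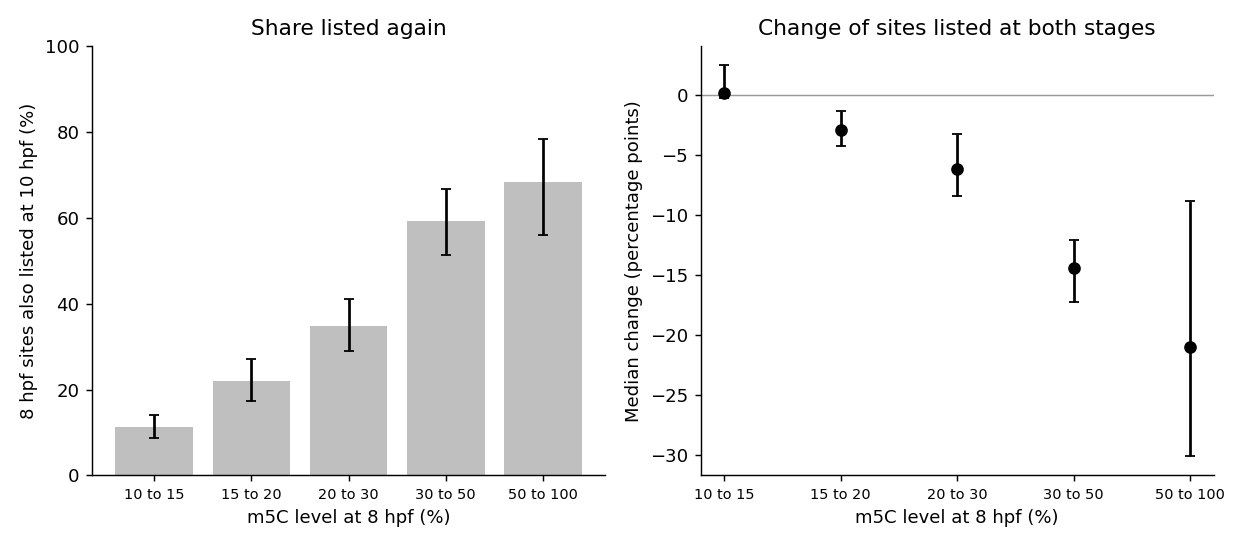
Sites of the 8 hpf list in 5 classes of level (x axes, %), with the share listed again at 10 hpf (left, %, bars with Wilson 95% intervals) and the median change of sites listed at both stages (right, percentage points, with 95% intervals). The share rises from 11.2% in the lowest class to 68.3% in the highest while the median change goes from 0.22 to -21.0 points.

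C reads were fewer at 10 than at 8 hpf at most shared sites, and T reads were fewer at some and more numerous at others. Library depth is not in the lists, so a read count by itself cannot be compared between stages as an amount of RNA, but C and T reads of a site come from the same libraries. Over the shared sites, the median ratio of C reads at 10 hpf to C reads at 8 hpf was 0.715 (0.667 to 0.769), and the same ratio for T reads was 1.05 (0.965 to 1.13). Coverage had a median ratio of 0.985 (0.934 to 1.03). At the 96 sites called lower, C reads had a median ratio of 0.531 (0.489 to 0.593) and T reads one of 1.56 (1.41 to 1.64). Over all 334 shared sites, 122 had fewer of both kinds at 10 hpf and 49 more of both. At 123 C reads were fewer and T reads more numerous, at 29 the reverse held and 11 had an equal count of one kind. The sites called lower are by their choice sites where the 2 counts moved apart. Both shifts occurred at once at 76 of these 96 sites, where C reads were fewer and T reads more numerous at 10 hpf. Another 10 had fewer of both, 7 had more of both and 3 had an equal count of one kind.

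The 13 sites called higher had the opposite make-up. Their T reads had a median ratio of 0.538 (0.434 to 0.776) and were fewer at 10 hpf at 12 of the 13. Their C reads had a median ratio of 1.30 (0.851 to 2.19), with more C reads at 9 sites and fewer at 4. Coverage was lower at 10 hpf at 9 of the 13, with a median ratio of 0.714 (0.525 to 1.12), against 1.17 (1.06 to 1.25) at the sites called lower. Since the calls were made from these C and T reads, the ratios are given as a description and carry no test.

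**Figure D3:**
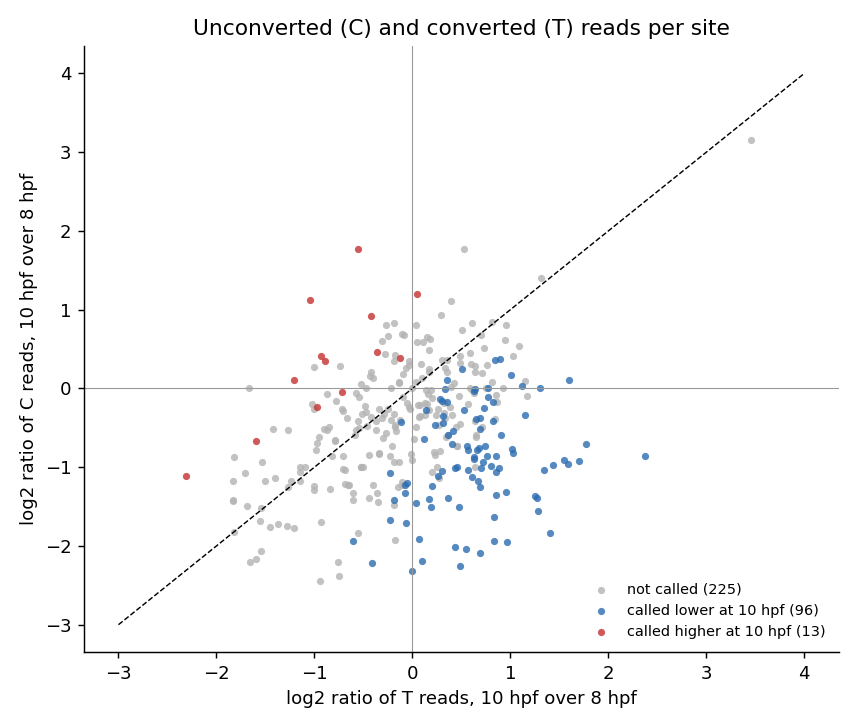
Log2 ratio of T reads (x axis) and of C reads (y axis) at 10 hpf over 8 hpf for the 334 shared sites, with the dashed line where both changed equally and so the level stayed the same. Of the 96 sites called lower, 76 lie to the right of 0 on the x axis and below 0 on the y axis, and 12 of the 13 called higher lie to the left of 0 on the x axis.

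Of the 99 shared sites with a higher level at 10 hpf, 13 were called higher. They were in 13 genes, 3 of them in the list of maternal and germ line genes. The largest rise was in zp3a.2, which encodes a zona pellucida protein of the egg coat (chromosome 20, position 34012893, plus strand). Its C reads numbered 49 of 253 at 8 hpf and 167 of 306 at 10 hpf. The level was 19.4% and then 54.6%, a rise of 35.2 points (27.5 to 42.2; adjusted p = 1.03e-16 by Fisher's exact test). This site was listed at 12.2% of 123 reads at 0 hpf, was in no list from 2 to 6 hpf and was listed once more at 16 hpf at 81.8% of 22 reads. The other zp3a.2 site (position 34012447) had 43 C reads of 391 at 8 hpf and 45 of 362 at 10 hpf. Its level was 11.0% and 12.4% and the change did not pass the test (adjusted p = 0.748 by Fisher's exact test).

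A second egg coat site was in a gene listed as zp3.2 (ENSDARG00000087209, chromosome 17, position 2360113, minus strand). It had 20 C reads of 110 at 8 hpf and 46 of 139 at 10 hpf, or 18.2% and 33.1%, and rose by 14.9 points (3.92 to 25.1; adjusted p = 0.0309, Fisher's exact test). The same symbol stands for another gene ID, ENSDARG00000089352, whose site at position 2367087 went the other way. It had 101 C reads of 278 at 8 hpf and 50 of 289 at 10 hpf, or 36.3% and 17.3%, and fell by 19.0 points. Egg coat genes have close copies in the zebrafish genome, and reads shared by copies could have been assigned to either, so these values are less certain than others.

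The site in buc, the organiser of the Balbiani body that carries germ plasm in the egg, rose by 15.4 points (4.48 to 27.6; adjusted p = 0.0213, Fisher's exact test). It had 52 C reads of 290 at 8 hpf and 24 of 72 at 10 hpf, so C reads fell in number while the level went from 17.9% to 33.3%. Coverage of this site was 6128 reads at 4 hpf and 922 at 6 hpf, and its ratio of coverage at 10 to 4 hpf, 0.012, was the lowest of the 11 sites called higher that were listed at 4 hpf. The site in lmnl3, which encodes a lamin of the nuclear envelope, had 24 C reads of 150 at 8 hpf and 32 of 98 at 10 hpf. Its level was 16.0% and 32.7%, up by 16.7 points (5.85 to 27.6), after 2318 reads at 4 hpf. In lsm14b, a component of stored ribonucleoprotein particles, 57 C reads of 329 became 36 of 126, and the level went from 17.3% to 28.6%.

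After zp3a.2, the largest rise was in DNM2, or dynamin 2, a GTPase that pinches vesicles off membranes. Its site on chromosome 1 (position 59707506) had 16 C reads of 119 at 8 hpf and 35 of 85 at 10 hpf. The level was 13.4% and 41.2%, a rise of 27.7 points (15.5 to 39.5; adjusted p = 8.54e-05, Fisher's exact test), after 14.3% at 4 hpf and 29.0% at 6 hpf on 49 and 31 reads. The site in tln1, which encodes the integrin-binding protein talin, went from 29 C reads of 81 to 37 of 65. That was 35.8% and 56.9%, above each earlier stage, of which the highest was 40.5% at 2 hpf. Several genes are listed as A2ML1, a family of protease inhibitors. In ENSDARG00000076366, the site at position 3939052 rose from 27.1% of 70 reads to 48.6% of 74. The other shared site of this gene ID was lower at 10 hpf than at 8 hpf, and its level at 10 hpf was 11.6%. Other gene IDs listed as A2ML1 lie close by on chromosome 3, so reads shared by copies could have been assigned to either.

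The remaining sites called higher were in 5 genes. The site in zgc:110239 had 220 C reads of 1006 at 8 hpf and 303 of 913 at 10 hpf, or 21.9% and 33.2%. In si:dkey-238c7.16 there were 93 C reads of 655 and then 100 of 344, or 14.2% and 29.1%. The site in gyg1a, which encodes glycogenin, the primer of glycogen synthesis, went from 25.4% of 449 reads to 36.3% of 267. The site in prdx3, which encodes a mitochondrial peroxiredoxin, had the highest level of the 13 at both stages, 53.4% of 532 reads and 62.0% of 597, after 67.9% at 6 hpf. The smallest rise, 5.83 points (2.24 to 9.58), was in nap1l4a, a histone chaperone gene, from 11.8% to 17.6%. Of the 13 sites, zp3a.2, DNM2, lmnl3, buc, si:dkey-238c7.16 and zgc:110239 were also called by the z test with extra spread. For the other 7 the adjusted p of that z test was between 0.0559 in A2ML1 and 0.159 in prdx3.

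Sites called higher and sites called lower had different levels at earlier stages, which their choice partly sets. Of the 13 called higher, 11 were listed at 4 hpf, with a median level of 18.2%. Of the 96 called lower, 88 were listed at 4 hpf, with a median level of 60.8%. Taking only sites present in each list from 0 to 10 hpf, the 7 called higher had a median level of 23.4% in the egg, 21.3% by 4 hpf, 25.4% by 8 hpf and 36.3% by 10 hpf. The 76 called lower had 61.5%, 60.8%, 33.1% and 16.1% at these times. The median of those 76 was thus already lower by 8 hpf than by 4 hpf, and that of the sites called higher was not. Over all 186 sites in each of these lists, the median went from 42.1% in the egg to 33.5% by 6 hpf, 28.5% by 8 hpf and 18.0% by 10 hpf. The levels at 8 and 10 hpf chose these classes and carry no test here. A shared site had to be at 10% or more at 10 hpf, so a larger fall needed a higher level at 8 hpf. Of 59 shared sites between 10% and 15% at 8 hpf, 3 were called lower and 3 higher. Of 43 at 50% or more, 22 were called lower and 1 higher. The earlier levels of both classes are not free of this choice.

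**Figure D4:**
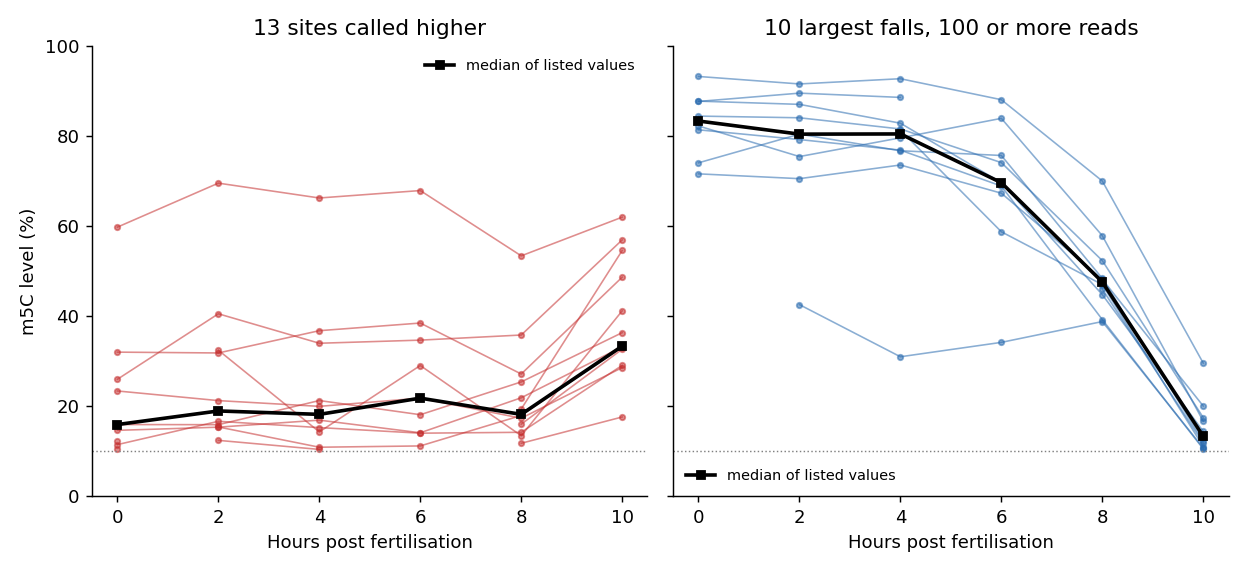
m5C level (y axis, %) at the stages from 0 to 10 hpf (x axis) for the 13 sites called higher at 10 than at 8 hpf (left) and the 10 largest falls among sites with 100 reads or more at both stages (right), with thin lines for sites, black squares for the median of the values listed at each stage and a dotted line at the list minimum of 10%. Median level of the 13 sites was 18.2% at 8 hpf and 33.3% at 10 hpf, and the 10 falling sites ended between 10.5% and 29.6%.

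With 100 reads or more required at 8 and 10 hpf, the largest fall was in mpzl2b, which encodes a membrane protein of the myelin protein zero family. It had 81 C reads of 140 at 8 hpf and 19 of 114 at 10 hpf, or 57.9% and 16.7%, a change of -41.2 points (-50.9 to -29.7; adjusted p = 1.33e-10, Fisher's exact test). The site in shmt2, the mitochondrial serine hydroxymethyltransferase of one-carbon metabolism, had 98 C reads of 140 and then 60 of 203. Its level was 70.0% and 29.6%, a change of -40.4 points (-49.5 to -30.0), after 88.1% at 6 hpf. A second shmt2 site fell as well, from 43.4% of 129 reads to 21.0% of 143. In naa15a, a subunit of the N-terminal acetyltransferase NatA, 291 C reads of 650 became 117 of 813. That took the level from 44.8% to 14.4% (adjusted p = 2.1e-36, Fisher's exact test). In each of these cases C reads fell in number while T reads rose.

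The other 7 of the 10 largest falls were in genes of varied roles. SEC16A, a scaffold of sites where vesicles leave the endoplasmic reticulum, went from 48.4% of 277 reads to 12.2% of 229. The membrane fusion regulator gene stxbp3 went from 52.3% of 172 to 17.5% of 252. Levels in nckipsd were 47.0% of 100 reads and 11.0% of 145, and those in bcl7ba, a subunit gene of the SWI/SNF chromatin remodeller, were 46.0% of 137 and 11.8% of 203. The kinase gene stk24b went from 39.2% of 260 reads to 10.5% of 314. In dlst, a subunit of the 2-oxoglutarate dehydrogenase complex, 48.2% of 546 reads became 20.0% of 654. The spermine oxidase gene smox went from 38.8% of 116 reads to 10.7% of 215. All 10 were also called lower by the z test with extra spread. Most of them ended near the list minimum, so sites that fell further would have left the list.

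Of the 10 shared sites with the most reads at 10 hpf, 8 were called lower by Fisher's exact test, with changes from -12.0 to -1.69 points, and 5 of these also by the z test. Over all shared sites, 28.7% were called lower by Fisher's exact test and 22.2% by the z test. At such depth the exact test calls small changes, so the 8 calls partly follow from choosing sites by their reads. In ubc, which encodes polyubiquitin, 6504 C reads of 30062 at 8 hpf became 3982 of 35152 at 10 hpf, or 21.6% and 11.3% (adjusted p = 4.44e-277, Fisher's exact test), and the z test with extra spread called it too. In hmgb2b, a high mobility group protein gene, 3241 of 25079 became 3847 of 34773, or 12.9% and 11.1%. The change of -1.86 points (-2.39 to -1.33) was called by Fisher's exact test but not with extra spread, where the adjusted p was 0.616. The same held for taf15, an RNA-binding protein gene, with 12.0% of 16335 reads and 10.3% of 20435 and an adjusted p of 0.644 with extra spread. At bsg, which encodes the membrane protein basigin, the level was 10.4% of 6083 and 10.6% of 6880 reads, a difference of 0.22 points (-0.84 to 1.27).

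Adhesion genes included ctnnb2, a beta-catenin of cell junctions and Wnt signalling. Its site had 3426 C reads of 5819 at 8 hpf and 2473 of 5279 at 10 hpf, or 58.9% and 46.8%, a change of -12.0 points (-13.9 to -10.2; adjusted p = 4.21e-35, Fisher's exact test) that the z test called as well. Both shared sites of ctnna1, an alpha-catenin gene, were lower too, from 18.6% to 12.7% and from 22.9% to 15.0%, and were called by Fisher's exact test only. The 2 sites of cldnd, a claudin of tight junctions, had levels of 18.3% and 25.7% and of 10.9% and 14.1% at 8 and 10 hpf, and neither passed the test. The 5 shared sites of the cell adhesion and matrix list were in 3 genes. Of these sites, 3 were called lower and none of the 5 higher, beside 28.7% and 3.89% of all shared sites. The list, matched by symbol, leaves out other adhesion genes. Among those left out, the site of tln1 was called higher and that of mpzl2b lower. The shared sites of jam2a and parvaa had lower levels at 10 hpf.

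Of the 9 sites of the translation factor list at 8 hpf, 3 were listed again (33.3%), beside 26.7% of all sites, and of the 3 sites of the ribosomal protein list, 2 were. gnb2l1, which encodes the ribosome-bound scaffold RACK1, had 4030 C reads of 11764 at 8 hpf and 4527 of 20069 at 10 hpf, or 34.3% and 22.6%. The change of -11.7 points (-12.7 to -10.7) passed both tests, and the adjusted p was 0.00107 in the z test. Its level had been 96.7% at 4 hpf and 84.3% at 6 hpf, and the site was listed again at 14.0%, 16.5% and 20.3% at 16, 24 and 48 hpf. rps9, a protein gene of the small ribosomal subunit, went from 18.0% of 11315 reads to 13.4% of 19838 and was at 14.7% of 31015 reads at 48 hpf. This fall was called by Fisher's exact test (adjusted p = 8.62e-27) and not by the z test, where the adjusted p was 0.165. At both sites C reads were more numerous at 10 hpf than at 8 hpf, and T reads more so.

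Among translation factors, pabpc1a, the cytoplasmic poly(A)-binding protein gene, went from 23.0% of 19879 reads to 16.0% of 28391 and was called lower by both tests. The site in eif3ea, a subunit of the initiation factor that recruits the ribosome, was at 12.6% of 3402 reads and 14.3% of 5283. Its difference of 1.78 points (0.30 to 3.22) did not pass the test (adjusted p = 0.0567, Fisher's exact test). The site in eef1da, an exchange factor subunit of elongation, was at 26.3% and 29.4%, a difference of 3.13 points (-1.53 to 7.75) that did not pass either. alyref, the gene of an m5C-binding export adaptor, was the only member of the m5C pathway list with a shared site. It went from 29.2% of 4200 reads to 23.0% of 4769 and was called lower by Fisher's exact test but not by the z test, where the adjusted p was 0.144. Of the gastrulation patterning list, eomesa, a T-box gene of endoderm and mesoderm formation, had the only shared site, at 21.4% of 84 and 22.2% of 36 reads.

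Selenoprotein genes had 2 shared sites. gpx1a, a glutathione peroxidase gene, was at 48.5% of 163 reads at 8 hpf and 25.0% of 340 at 10 hpf, a change of -23.5 points (-32.2 to -14.5; adjusted p = 2.19e-06, Fisher's exact test) that the z test called as well. C reads numbered 79 and 85, and T reads 84 and 255. The site was first listed at 8 hpf and remained in the lists of 16, 24 and 48 hpf at 16.0%, 22.5% and 22.9%. selt1b, a selenoprotein T gene, was at 20.5% of 390 reads and 16.0% of 387, which did not pass the test.

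The vesicle traffic list, matched by gene symbol and without DNM2, had 15 shared sites in 10 genes. Of these, 7 were called lower and none of the 15 higher, against 28.7% called lower and 3.89% called higher over all shared sites. Their median change was -14.2 points, beside -4.62 over all shared sites. The list leaves out other traffic genes besides DNM2. Among these, the shared sites of cog6 and synrg had higher levels at 10 hpf without being called higher, and that of kdelr3 a lower one. Apart from SEC16A and stxbp3, vps16, a subunit gene of the endosomal tethering complexes, had 2 falling sites, from 61.4% of 132 reads to 22.5% of 89 and from 29.0% of 100 to 12.1% of 91. arf1l, an ADP-ribosylation factor gene, went from 28.5% of 1140 reads to 10.8% of 1490. None of the 4 sites of vps13a, a lipid transfer protein gene, passed the test. Their changes were -14.2, -7.03, -2.77 and 0.57 points.

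The list of mitochondrial and metabolic enzymes, also matched by symbol, does not hold prdx3, gyg1a, dlst or pcxa. It had 14 shared sites, of which 6 were called lower and none of the 14 higher, beside 28.7% and 3.89% of all shared sites. Its median change was -9.15 points, and that of all shared sites was -4.62. Besides shmt2, the ATP synthase subunit gene atp5ib went from 29.4% of 313 reads to 12.9% of 564. ldhba, the lactate dehydrogenase B gene, had 2760 C reads of 4585 at 8 hpf and 2454 of 4779 at 10 hpf. Its level was 60.2% and 51.3%, and it remained above 50% at 10 hpf. eno3 and fh, genes of enolase and of fumarase, were at 34.1% and 35.4% and at 15.5% and 19.9%, and neither change passed the test.

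The list of maternal and germ line genes had a median change in the other direction, 2.75 points over 17 shared sites. Of these, 13 were higher at 10 hpf and 4 lower, and the test called 3 higher (zp3a.2, zp3.2 and buc) and 1 lower (the other zp3.2 gene ID). Over all shared sites, 3.89% were called higher and 28.7% lower. Of the 28 sites of this list at 8 hpf, 60.7% were listed again, beside 26.7% of all sites. The list, matched by symbol, leaves out some egg and germ line genes. Among those left out, the shared sites of dnd, zpcx and MOV10L1 had lower levels at 10 hpf, and that of exd1 a higher one. The sites of lmnl3 and lsm14b, described above beside that of buc, are outside this list too, and both were called higher. The germ plasm helicase gene vasa was at 35.8% of 732 reads and 42.6% of 502, a difference of 6.84 points that did not pass the test. h1m, the maternal linker histone gene, was at 52.7% of 2691 and 54.3% of 1306 reads. Of tdrd7, a Tudor domain gene of germ granules, the 2 sites were at 48.0% and 49.2% and at 21.2% and 23.9% at 8 and 10 hpf. piwil1, a gene of the piRNA pathway, was at 10.5% of 57 reads and 27.3% of 22, and the difference did not pass the test (adjusted p = 0.183, Fisher's exact test). These genes were chosen for naming after their values were seen, and the list holds the egg coat genes whose copies are hard to separate.

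Other lists had 8 or fewer shared sites each, to be read beside the 28.7% called lower and 3.89% called higher over all shared sites. Of the 8 in the cytoskeleton list, 1 was called higher (tln1) and 2 lower, among them myo6a, a myosin VI gene, from 43.8% of 64 reads to 14.5% of 76. The list of signalling kinases and phosphatases had 8 with 3 called lower, and its median change was -10.6 points beside -4.62 over all shared sites. The ubiquitin and proteasome list, matched by symbol, leaves out ubc and some ubiquitin ligase genes. Of its 38 sites at 8 hpf, 3 were listed again (7.89%), beside 26.7% of all sites. Among these 3 was the largest fall of all shared sites, in the ubiquitin ligase gene fbxo45, from 61.7% of 81 reads to 14.6% of 96. The only shared site of the RNA decay and polyadenylation list was that of lsm14b.

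**Figure D5:**
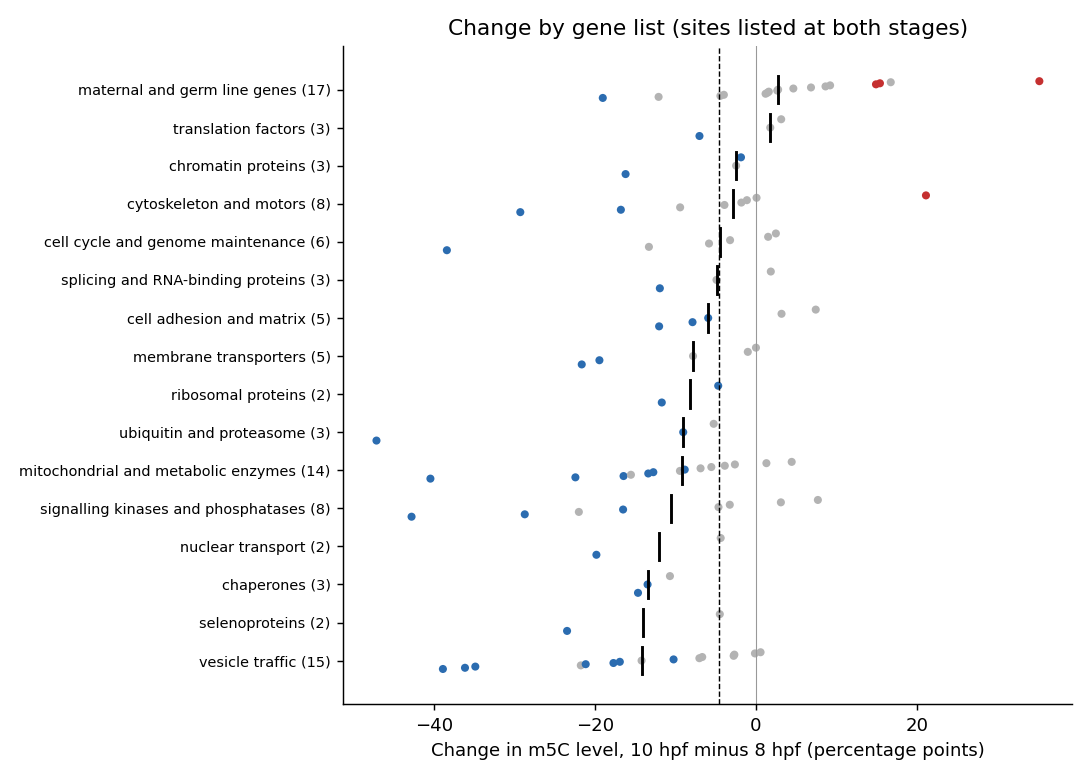
Change in m5C level from 8 to 10 hpf (x axis, percentage points) of each shared site in the lists with 2 or more (rows, number of sites in brackets), in blue if called lower, red if called higher and grey if not called, with a black bar at the list's median and a dashed line at the median of all shared sites, -4.62 points. The list of maternal and germ line genes has a median of 2.75 points, and the vesicle traffic list one of -14.2 points.

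Genes still listed at 10 hpf numbered 352, of which 300 (85.2%, 81.1% to 88.6%) had been listed at 8 hpf, 287 of them by a shared site. Of the 428 sites, 257 had first been listed in the egg, 59 by 2 hpf, 13 by 4 hpf, 4 by 6 hpf and 48 by 8 hpf, while 47 were in no earlier list. The 186 sites in all 5 earlier lists thus made up a large part of the 10 hpf list. Of 287 sites that had a level at 4 hpf, the level at 10 hpf was a median 60.3% (52.8% to 65.7%) of the earlier one, and 69 sites were at or above it. These 287 sites had to be at 10% or more at 10 hpf, so sites that fell below it are not in this median. Levels at 10 hpf were 50% or more at 22 sites and 20% or more at 158. At 197 of the 428 sites the Wilson interval of the level reached down to 10% or below, so many sites lay too near the minimum for their listing to be firm at this depth.

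The highest level at 10 hpf with at least 50 reads was in retsatl, a gene named for likeness to retinol saturase. It had 352 C reads of 373 at 8 hpf and 302 of 317 at 10 hpf, or 94.4% and 95.3%, and the difference was 0.90 points (-2.60 to 4.27). Its levels from 0 to 6 hpf were between 93.4% and 94.6%, so all its levels up to 10 hpf lay between 93.4% and 95.3%. The gene ENSDARG00000045921 had 60 C reads of 76 and 68 of 83, or 78.9% and 81.9%. A site on the mitochondrial chromosome (position 1862, ENSDARG00000082753) was at 79.5% of 156 reads and 75.9% of 1457, and between 78.6% and 82.1% at 16, 24 and 48 hpf. Whether this mitochondrial site lies in an mRNA was not checked here. zp3b, a further egg coat gene, was at 65.8% of 228 reads and 75.0% of 232 (adjusted p = 0.0856, Fisher's exact test).

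The others of the 10 highest were prdx3, described above, and sites in 4 further genes, none of which passed the test. The catalase gene cat was at 47.5% of 61 reads and 68.6% of 51, a difference of 21.1 points (2.71 to 37.4; adjusted p = 0.0893, Fisher's exact test). nccrp1, a gene of a cell-surface receptor protein of fish cytotoxic cells, had sites at 52.0% and 61.1% of 50 and 54 reads and at 52.1% and 61.1% of 121 and 113. The first of these was at 12.9% at 0 hpf and 33.3% at 6 hpf. lgi1a, a gene of a secreted leucine-rich repeat protein, was at 59.0% of 173 reads and 61.0% of 105. ATP5J, an ATP synthase subunit gene, was at 76.5% of 68 and 60.9% of 64 reads, a difference of -15.5 points (-30.4 to 0.26).

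Most genes at 10 hpf had a single site. There were 293 with 1 site, 45 with 2, 11 with 3 and 3 with 4. Of the 42 genes with 2 or more shared sites, the sites were all lower in 18, all higher in 13 and in both directions in 11. pcxa, the pyruvate carboxylase gene, had 4 shared sites with levels of 12.0% to 31.3% at 10 hpf, and the site called lower went from 58.8% of 68 reads to 31.3% of 67. The 4 sites of si:ch73-207h17.1 were between 16.7% and 70.0%, and the 4 of vps13a between 11.3% and 15.8%. In DNM2 the site described above rose, while its neighbour at position 59700997 was at 16.3% of 208 reads and 13.5% of 163. The 3 sites of CABZ01112215.1 were all higher at 10 hpf, by 2.23 to 14.9 points, and none passed the test. The first of them was at 20.8% of 96 reads and 35.7% of 98.

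The other genes with 3 sites were larp6, ndrg3b, xrcc4, zcchc17, strbp, si:ch73-112n4.1, pak1, xylb and zgc:173556. In xrcc4, a gene of DNA end joining, the 2 shared sites were at 26.0% and 27.3% and at 28.4% and 29.1% at 8 and 10 hpf. The 2 of pak1, a p21-activated kinase gene, were at 18.5% and 13.8% and at 23.1% and 19.9%. Both shared sites of larp6, an RNA-binding protein gene, and of ndrg3b had lower levels at 10 hpf. strbp, a spermatid perinuclear RNA-binding protein gene, had sites at 26.6% and 35.5% and at 12.4% and 12.5%. The shared site of xylb, the xylulokinase gene, was at 32.3% of 65 reads and 45.5% of 44. No change in these genes passed the test. All 3 sites of si:ch73-112n4.1 were missing from the 8 hpf list and present at 2 and 4 hpf, with levels of 10.4% to 21.1% at 10 hpf.

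Sites at 10 hpf that were not listed at 8 hpf numbered 94, of which 47 had been listed between 0 and 6 hpf and 47 had not. Their median level was 13.2% (12.4% to 14.7%), and 17 were at 20% or more. Of the 47 in no earlier list, the deepest were in serpine2, a protease inhibitor gene, at 11.6% of 848 reads, and in ctsa, the cathepsin A gene, at 11.4% of 801 reads. Next came acadm, a gene of fatty acid oxidation, at 11.1% of 296, zgc:173556 at 15.6% of 199 and zcchc17. Sites of zgc:173556 lie on both sides of the zp3.2 sites, on the same strand of chromosome 17, and may carry the same doubt about copies. The 3 zcchc17 sites lay within 4 bases of each other at positions 44600269, 44600271 and 44600272 of chromosome 19, at 11.9%, 12.5% and 15.1% of 179 to 193 reads. At this distance most reads would cover all 3 of them, so they are not separate observations. Among sites in no earlier list with at least 50 reads, the highest levels were in si:dkeyp-46h3.2 at 18.7% of 91 reads and rtn4b, a reticulon gene, at 18.2% of 55. After them came si:ch73-207h17.1 at 16.7% of 78 and TDRD12, a Tudor domain gene, at 16.5% of 97. Levels of this size are close to the minimum, and a site just under it at 8 hpf would look the same as one that was new.

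Only 12 sites at 10 hpf were listed at 16, 24 or 48 hpf. Besides gnb2l1, rps9, eif3ea, gpx1a, zp3a.2 and the mitochondrial site, they included sites in zdhhc16a, usf2, zcchc17, zp2.2 and ODF3L2. usf2, a transcription factor gene, was at 14.0% of 172 reads at 8 hpf, 18.4% of 196 at 10 hpf and 10.0% of 140 at 48 hpf. ODF3L2, named after an outer dense fibre protein of sperm, was at 28.8% of 59, 30.2% of 149 and, at 16 hpf, 10.5% of 38 reads. zdhhc16a, a palmitoyltransferase gene, was first listed at 10 hpf at 12.4% of 161 reads and was at 15.0% of 187 at 16 hpf and 15.1% of 73 at 48 hpf. The egg coat gene zp2.2 was at 10.3% of 974 reads at 10 hpf and 12.1% of 99 at 16 hpf. The zcchc17 site at position 44600271 was at 13.1% of 84 reads at 16 hpf.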

How the data were processed

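Stranded bisulfite libraries of polyadenylated RNA took their groups from the stages named in the sample titles. Per the submitters' processing notes, reads were handled with bcl2fastq 2.17, cutadapt, Trimmomatic, HISAT2 2.10 and SAMtools on Zv9. Per the study's methods, genes resistant to conversion and reads with many unconverted cytosines were removed, and sites were called by binomial tests whose p-values were combined over replicates. Those methods also kept a site seen in only 1 replicate because of coverage, under a stricter minimum of C reads. Thinly covered values may therefore rest mostly on 1 library. The authors deposited 1 list a stage, merging replicates. In the deposited lists coverage is the count of C and T reads together, and the level is a fraction, given here in percent. The p-value column of the authors was left unused. Coverage times level was whole at each site within 1e-06, so C and T reads were recovered.

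Shared sites were tested by Fisher's exact test with Benjamini-Hochberg adjustment (SciPy 1.17.1, statsmodels 0.14.6). The logistic model planned for counts of single replicates could not be used on pooled counts. The z test used beta-binomial variance with a correlation of 0.00232 from 4587 sites shared by 2 and 4 hpf. Intervals are Wilson for levels and shares, Newcombe for differences and from order statistics for medians. They cover counting error or spread over sites only, and PCR copies are not told apart. Both site tests were also run on simulated data. There the starting levels were kept to a middle range and no list minimum applied, so the simulation differed from the shared sites. Coverage gives the depth behind each value. Members, gene lists and tests were chosen with earlier results of these data known. Gene lists were matched by symbol, and 7 symbols matched by chance were left out after the matches were seen.

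Named sites were those called higher, the 10 largest falls with at least 100 reads, the 10 highest levels at 10 hpf with at least 50 reads, genes with 3 or more sites at 10 hpf, the 10 deepest shared sites, the 5 deepest and the 5 highest sites in no earlier list, sites in later lists, and members of the ribosomal protein, translation factor, m5C pathway, selenoprotein and gastrulation patterning lists. Other genes were named after their values were seen. Of 1025 gene IDs, 857 (83.6%) were in a table of current names. Alternatives were other minima of coverage, level and C reads, leaving out the mitochondrial chromosome, the z test, adjustment over all 8 comparisons of consecutive stages, a weighted mean and matching within 2 nt or by gene. Some genes that the naming rule covers are not reported here. Sequence context was not analysed here.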

Additional observations from a re-analysis of the deposited data

How the results depend on the processing

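Fisher's exact test gave 13 sites higher and 96 lower at 10 hpf. The z test with beta-binomial variance gave 6 higher, and a level of at least 0.2 at both stages gave 5 higher and 26 lower, with fewer sites tested. A level of at least 0.3 at 8 hpf, chosen after seeing the data, gave 3 higher, a median change of -15.1 points and median ratios of 0.525 for C reads and 1.20 for T reads, against -4.62, 0.715 and 1.05. With at least 100 reads the ratios were 0.803 and 1.14. The mean change weighted by the smaller coverage was -6.35 points. The share of 8 hpf sites listed at 10 hpf, 26.7%, was 30.1% with at least 50 reads, 31.9% with at least 100 and 30.8% by gene. The share of 10 hpf sites listed at 8 hpf, 78.0%, was then 82.1%, 87.3% and 85.2%. At named sites, 330 of the 347 adjusted p-values computed kept their side of the threshold. These settings leave the C and T reads of a site as they are, so its direction could not change. Except for the z test, they also keep its unadjusted p-value and alter only the adjustment. Few of the 347 could therefore change side, and the 330 are no measure of stability. The 17 others were 11 lost with the z test, 4 lost with adjustment over all 8 comparisons (A2ML1, tln1, zp3.2 and lsm14b) and 2 gained by eif3ea, at an adjusted p of 0.048 and 0.0407 with at least 50 and 100 reads. No paired analysis was possible because the lists combine the replicates, and fits without each replicate were not run for the same reason. Low coverage limits the sites near the 10% minimum, and absence from a list is not a level of 0.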

Other observations

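Sites of high level at 8 hpf that were missing at 10 hpf were thinly covered. There were 20 sites at 50% or more at 8 hpf that were not listed at 10 hpf, and their coverage at 8 hpf was between 20 and 65 reads with a median of 42. The 43 such sites that were listed again had a median of 76 reads. A gene of a Ral GTPase-activating protein subunit, ralgapa2, was at 90.9% of 22 reads and wdr90, a gene of a WD repeat protein, at 89.4% of 47. per3, a period gene of the circadian clock, was at 58.7% of 46 reads after 94.7% at 6 hpf. HOOK2, a gene of a microtubule-binding adaptor, had the most reads of the 20, at 63.1% of 65. In 4 of the 20 cases the gene was still listed at 10 hpf by another site, as in ugp2b, which encodes a UDP-glucose pyrophosphorylase and whose missing site was at 70.5% of 61 reads.

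Sites that dropped out at 8 hpf and returned at 10 hpf included acss3, an acyl-CoA synthetase gene, at 86.4% by 4 hpf, 80.0% by 6 hpf and 38.6% of 88 reads by 10 hpf. The highest level of a site in no earlier list was 56.5% of 46 reads, in ENSDARG00000076771, another gene listed as A2ML1. It lies near other genes of that symbol on chromosome 3, so its reads could have been assigned to another copy. The median ratio of coverage at 10 hpf to coverage at 4 hpf was 0.417 (0.042 to 1.94) at 11 sites called higher and 0.787 (0.544 to 0.983) at 88 called lower, and these intervals overlap. Sites within 10 nt of another numbered 5 at 10 hpf and 20 at 8 hpf. These genes were chosen after their values were seen.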
